A study of Mus musculus with 61 samples.

Results

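The transcriptional repressor gene Rest, 2 of its corepressor genes (Rcor1 and Rcor2) and 7 genes for RNA-binding proteins of neuronal and neuroendocrine splicing (Srrm3, Srrm4, Celf3, Celf4, Elavl3, Elavl4 and Nova1) were followed in mouse pancreatic ductal organoid cells that expressed Ngn3, Pdx1 and MafA in combination. These 10 genes were chosen by name from the 46078 genes of the count table, with earlier results of these data known. All 10 passed the filter on low counts, as did 24004 genes in all. Levels are given in CPM, gene counts scaled to 1000000 per sample with TMM-adjusted totals.

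The organoids were three-dimensional cultures of pancreatic ductal cells of strain C57BL/6, infected with vectors for GFP-Ngn3, LSSOrange-Pdx1 and tdTomato-MafA and collected after 8 days of transgene induction. Ngn3 was either the wild-type form (WT cultures) or 6SANgn3, a form with serines replaced by alanines that cannot be phosphorylated there (6SA cultures). Cells were sorted by reporter colour into pools of 50 cells, which gave 12 conditions: Pdx1 alone (P), MafA alone (M), Pdx1 with MafA (PM), and each of these with Ngn3 (NP, NM and NPM), in both kinds of culture. The Ngn3-negative cells thus came from organoids that had been infected with the Ngn3 vector too, no condition held Ngn3 alone, and no uninfected or untreated cells were among the samples. Replicates 1 and 2 were at passage 2 and replicate 3 at passage 5. After technical repeats were summed there were 17 Ngn3-positive samples and 15 Ngn3-negative samples, with 3 samples in 8 of the conditions and 2 in WT P, WT M, 6SA P and 6SA NPM. Nothing states that replicates were separate infections or animals, so p-values measure the spread between these samples.

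Sample totals ran from 2579583 to 19461008 gene counts among Ngn3-positive samples and from 3339874 to 18555026 among Ngn3-negative ones. Counts assigned to Neurog3, which can include transcript of the vector, lay between 7.87 and 329 CPM in the 17 Ngn3-positive samples and at no more than 0.787 CPM in the other 15. Counts of Mafa were under 3 in 4 of the 22 samples sorted for MafA (0 in 6SA PM replicate 3, 1 in WT M replicate 1 and WT PM replicate 2, 2 in 6SA NM replicate 3), as in all 10 samples not sorted for it. Pdx1 ran from 9.84 to 191 CPM in the 21 samples sorted for Pdx1 and from 3.21 to 30.6 CPM in the other 11, so the ranges overlapped. The sum of 8 endocrine marker genes was 366 to 9430 CPM with Ngn3 and 1.32 to 6.71 CPM without it, and the sum of 8 duct markers was 1434 to 16827 CPM with Ngn3 and 11355 to 57350 CPM without it. Of 9 neuron and glia markers, Sox10 was at 0 in every sample, and their sum was 18.6 to 424 CPM with Ngn3 (mostly Map2) and 4.48 to 80.5 CPM without it. Of 8 acinar markers, 3 (Pnlip, Ptf1a and Amy2a5) were at 0 in every sample, and the sum was at most 10.3 CPM with Ngn3 and 17.1 CPM without it. The sum of 9 mesenchyme, endothelium and blood markers was at most 4.01 CPM without Ngn3 and reached 296 CPM with it, in WT NM replicate 1. The part of these other cell markers in the results was not tested.

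REST is a zinc-finger protein that binds a long DNA element, RE1, in and near genes of neurons and endocrine cells and keeps them silent in other tissues. It does so through corepressors, among them CoREST proteins (made from Rcor1, Rcor2 and Rcor3), which hold the histone demethylase LSD1 and histone deacetylases. Neurons and pancreatic islet cells have low REST and share part of a splicing programme, in which SRRM3 and SRRM4 promote the inclusion of microexons and the CELF, ELAVL (Hu) and NOVA proteins bind other RNA elements. SRRM4 also acts on Rest itself, since it promotes an exon that truncates the repressor. The counts used here are per gene and do not measure splicing or protein.

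A search for RE1 shows which of the genes carry the letters that REST is known to bind. The motif was TTCAGCACC, any 2 bases, then GGACAGCGC, with at most 2 mismatches over the 18 compared letters and both strands searched. It was looked for in RefSeq promoter windows (250 bases before to 50 after a gene's start, GRCm38.p6) and in the spliced transcripts of protein-coding genes (GRCm38). Among the 10 genes only Srrm4 held a match, in its transcript, and none of the 8 genes with a promoter window held a match there. Of 22 genes listed as known RE1 genes, 8 held a match in either place: Bdnf, Gria2, Grin1, Syn1, Vgf, Syp, Celsr3 and Syt4. Over all genes, a match was in 12 of 32851 promoter windows (0.0365%) and in the transcripts of 59 of 21901 genes (0.269%). The Srrm4 site is shown with 4 sites of the listed RE1 genes and that of the splicing gene Celf6, because they let the letters be compared. Letters that equal the motif are in capitals.
Srrm4: TTCAGCACttcGGACAGCGC
Bdnf: TTCAGCACCttGGACAGaGC
Grin1: TTCAGCACCtcGGACAGCaC
Gria2: TTtAGCACCgcGGACAGCGC
Syn1: TTCAGCACCgcGGtCAGaGC
Celf6: TTCAGCACCgcGGACAGCGg
The Srrm4 site was in the 5′ UTR at chr5:116591496-116591515 on the minus strand. The Bdnf site (chr2:109676045-109676064, plus strand) and the Grin1 site (chr2:25319015-25319034, minus strand) were also in 5′ UTRs, the Gria2 site (chr3:80802989-80803008, plus strand) and the Syn1 site (chrX:20921131-20921150, minus strand) in promoter windows, and the Celf6 site (chr9:59578435-59578454, plus strand) in coding sequence. A match is a run of letters and says nothing of binding in these cells, and many RE1 elements lie in introns or farther away, which were not searched.

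The first comparison asked what Ngn3 added to the same other factors, averaged over the 6 backgrounds (Pdx1, MafA or both factors, in WT or 6SA cultures). Rest fell, Rcor2, Srrm3, Celf3, Elavl3, Elavl4, Nova1 and Celf4 rose, and Rcor1 and Srrm4 passed the test in neither direction. The 7 genes that rose stand beside 11.1% of all genes tested that were called higher, and the 1 that fell beside 10.5% called lower (edgeR quasi-likelihood test, Benjamini-Hochberg adjusted over the 24004 genes). The median log2 fold change was 4.91 over the 10 genes and 0.07 over all genes. For Srrm3, Elavl3, Elavl4 and Nova1 the Ngn3-negative cells held at most 9 counts a gene over all 15 samples, so their fitted fold changes depend on the prior count of the fit and ratios of summed counts are given as well, with intervals that cover counting error only.

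**Figure D1:**
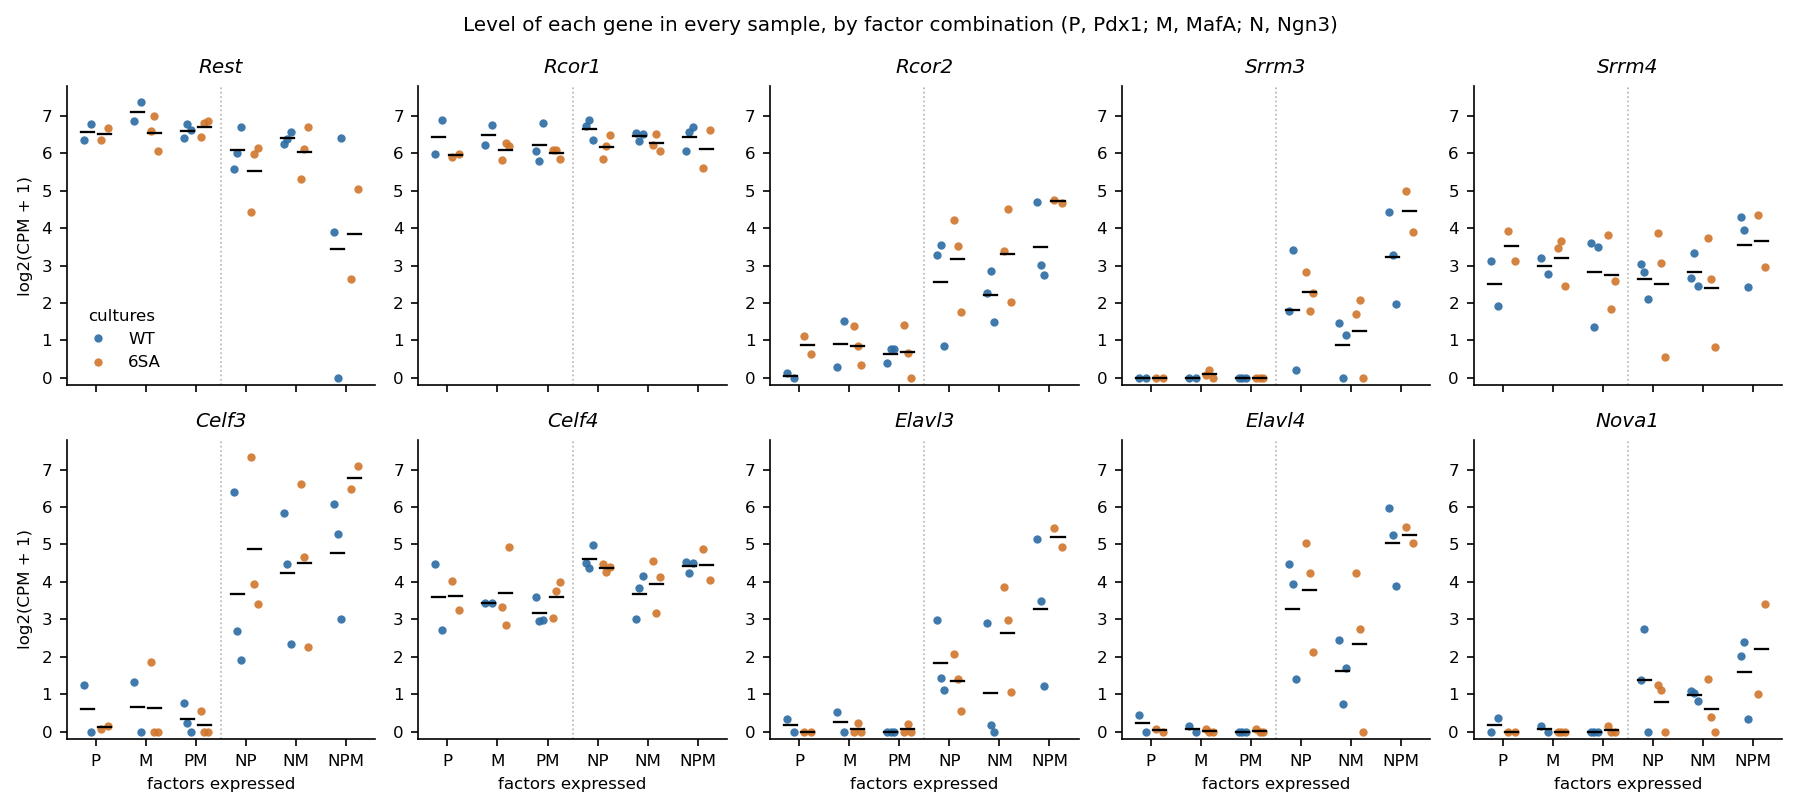
Each panel shows one of the 10 genes, with log2(CPM + 1) of every sample on the vertical axis against the factors expressed (P, Pdx1; M, MafA; N, Ngn3) on the horizontal axis, WT cultures in blue and 6SA cultures in orange. Points are samples and black bars are means of the plotted values. Celf3 separates all 17 samples with Ngn3 from the 15 without it, Rest is lowest in NPM cells, and Rcor1, Srrm4 and Celf4 overlap across the dotted line between cells without and with Ngn3.

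Rest (chr5:77265491-77286432, plus strand) encodes the repressor. Without Ngn3 its level ran from 66.4 to 165 CPM over the 15 samples, with a median of 101 CPM. In NPM cells it was 13.9, 0 and 84.3 CPM in WT replicates 1, 2 and 3 and 5.29 and 32.4 CPM in 6SA replicates 1 and 2. In NP cells it was 47.1, 63.4 and 104 CPM (WT) and 20.7, 62.7 and 69.7 CPM (6SA). In NM cells it was 74.8, 82.8 and 93.9 CPM (WT) and 38.5, 68.3 and 104 CPM (6SA). Of the 17 Ngn3-positive samples, 9 lay below every Ngn3-negative sample and none above, and 8 lay within the Ngn3-negative range. The mean was 56.8 CPM ± 33.5 (SD, n = 17) with Ngn3 and 103 CPM ± 23.7 (SD, n = 15) without it. The log2 fold change over the 6 backgrounds was −1.08 (SE 0.37, adjusted p = 0.036). In pools of cells, fewer cells that express a gene and less RNA per cell cannot be told apart.

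The fall of Rest was close to the threshold and rested in part on single samples. Its adjusted p was between 0.0015 and 0.087 when each sample was left out in turn, and the call was lost in 14 of 32 such fits. These were the fits without WT replicates P 2, M 2, PM 2, NP 1, NP 2, NM 1 or NPM 1 and without 6SA replicates P 2, M 2, PM 2, PM 3, NP 1, NM 1 or NPM 1, with log2 fold changes from −1.07 to −0.95 and the highest adjusted p without 6SA NPM replicate 1. The zero in WT NPM replicate 2 came from a single library of 6029553 gene counts, in which 3 counts would have been 0.439 CPM. A further library of that sample, left out for its low total, held 4 Rest counts, or 6.39 CPM. Technical repeats of a sample differed more for Rest with Ngn3 (median ratio of highest to lowest 2.05, up to 10.8, in 8 samples) than without it (median 1.41, up to 1.75, in 9 samples).

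The passage moved with Rest. The 5 Ngn3-positive samples of passage 5 had 69.7 to 104 CPM, with a median of 93.9 CPM, and the 12 of passage 2 had 0 to 82.8 CPM, with a median of 42.8 CPM. Without Ngn3 the ranges were 66.4 to 117 CPM at passage 5 (3 samples) and 81.3 to 165 CPM at passage 2 (12 samples). At passage 2 alone the log2 fold change with Ngn3 was −1.64 (edgeR adjusted p = 0.0041). Passage 5 had single samples per condition, and no fit was made in it alone. Rest was not alone in this. Neurog3 had 7.87 to 38.8 CPM in the Ngn3-positive samples of passage 5 and 34.9 to 329 CPM in those of passage 2. Celf3 had 2.79 to 9.55 and 5.39 to 159 CPM, while Celf4 was not lower at passage 5 (16.5 to 30.8 and 7.10 to 28.4 CPM). The library of 6SA NPM replicate 3, also of passage 5 but left out for its low total, had Rest at 26.9 CPM from 11 counts.

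Rcor1 (chr12:111039351-111115901, plus strand) encodes CoREST1, the scaffold of the LSD1 complex, and was present at like levels in all samples. Its level was 55.1 to 118 CPM without Ngn3 and 48.1 to 118 CPM with it, and the ranges overlapped. The log2 fold change was 0.16 (SE 0.15, 95% interval −0.15 to 0.46, adjusted p = 0.59). Rcor2 (chr19:7267325-7275225, plus strand) encodes the paralogue CoREST2, known from neural tissue. Its level without Ngn3 was 0 to 1.85 CPM, with a median of 0.578 CPM. In NPM cells it was 25.1, 7.02 and 5.72 CPM in WT replicates 1 to 3 and 26.0 and 24.5 CPM in 6SA replicates 1 and 2. NP cells had 0.820 to 17.6 CPM (median 9.63) and NM cells 1.81 to 22.0 CPM (median 5.02). Thus 15 of 17 Ngn3-positive samples lay above every Ngn3-negative one. The log2 fold change was 4.18 (SE 0.55, adjusted p = 1.7e-06), and the summed counts differed 15.6-fold (95% counting interval 12.9 to 18.9). Per kilobase of exons, mean Rcor1 stood at 13.01 CPM and Rcor2 at 0.222 CPM without Ngn3, and in NPM cells at 14.4 and 5.60 CPM.

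Among the genes for microexon regulators, Srrm3 rose and Srrm4 did not pass the test. Srrm3 (chr5:135806890-135874772, plus strand) had 2 counts in all 15 Ngn3-negative samples together, 1 each in 6SA M replicates 1 and 2. In NPM cells its level was 20.6, 8.78 and 2.92 CPM (WT) and 31.1 and 13.9 CPM (6SA). In NP cells it was 2.43, 9.78 and 0.164 CPM (WT) and 6.16, 2.44 and 3.82 CPM (6SA). In NM cells it was 1.77, 0 and 1.21 CPM (WT) and 2.26, 3.22 and 0 CPM (6SA). It was thus above the highest Ngn3-negative sample (0.162 CPM) in 15 of 17 samples, with both exceptions among NM cells, while the sample of 0.164 CPM held a single count. The fitted log2 fold change was 7.97 (SE 0.95, adjusted p = 2.6e-06), and the summed counts differed 524-fold (95% counting interval 145 to 4333). Against the 6 PM samples, with 0 counts, Srrm3 in NPM cells was at least 349-fold higher, with a floor of 3 counts over the PM samples. Against the 4 P samples, also with 0 counts, NP cells were at least 56.2-fold higher on the same kind of floor.

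Srrm4 (chr5:116439275-116591817, minus strand) was expressed with and without Ngn3. It had 1.57 to 14.1 CPM without Ngn3 (median 7.76) and 0.477 to 19.4 CPM with it (median 6.77). NPM cells had 18.8, 14.5 and 4.39 CPM (WT) and 19.4 and 6.77 CPM (6SA), so that 3 of the 5 lay above all other samples. The log2 fold change over the 6 backgrounds was 0.07 (SE 0.40, 95% interval −0.75 to 0.90, adjusted p = 1). Whether the counting used strand is not stated in the sources used here. Without strand, reads from sequence that Srrm4 shares with its antisense gene Srrm4os could not be told apart. Such sequence made up 0.232% of the windows of read length in Srrm4. In Srrm3, 0.609% of these windows were shared with other genes, and its antisense gene Srrm3os was not among those sharing most.

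The CELF genes differed in level without Ngn3. Celf3 (chr3:94478295-94492198, plus strand), for an RNA-binding protein of neurons, had 0 to 2.65 CPM without Ngn3. With all 3 factors it had 66.2, 37.7 and 7.05 CPM (WT) and 87.8 and 137 CPM (6SA). In NP cells it had 83.4, 5.39 and 2.79 CPM (WT) and 159, 14.3 and 9.55 CPM (6SA). In NM cells it had 56.5, 21.4 and 4.08 CPM (WT) and 96.5, 24.3 and 3.82 CPM (6SA). Celf3 was the only one of the 10 genes with all 17 Ngn3-positive samples above all 15 Ngn3-negative ones, which held for 130 of the 24004 genes (0.542%). The log2 fold change was 6.75 (SE 0.82, adjusted p = 5.6e-07), and the summed counts differed 99.1-fold (95% counting interval 80.95 to 123). Celf4 (chr18:25477632-25754157, minus strand), its paralogue, had 5.59 to 29.5 CPM without Ngn3 (median 9.75) and 7.10 to 30.8 CPM with it (median 19.6). Its log2 fold change was 0.71 (SE 0.25, adjusted p = 0.044). The call on Celf4 held in only 12 of 32 fits without a sample and was lost in 20, up to an adjusted p of 0.11 without WT P replicate 2 (0.60), and 2 antisense genes overlap it.

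The Hu genes Elavl3 and Elavl4, for RNA-binding proteins of neurons that steady and splice target transcripts, went from near 0 to clear expression. Elavl4 (chr4:110203722-110351909, minus strand) had at most 0.361 CPM and 8 counts in all without Ngn3. In NPM cells it had 62.0, 37.3 and 13.8 CPM (WT) and 43.4 and 31.7 CPM (6SA). In NP cells it had 21.3, 14.5 and 1.64 CPM (WT) and 31.6, 17.8 and 3.34 CPM (6SA). In NM cells it had 4.44, 0.652 and 2.27 CPM (WT) and 17.9, 5.71 and 0 CPM (6SA). It lay above every Ngn3-negative sample in 16 of 17 samples, the exception being 6SA NM replicate 3. The fitted log2 fold change was 7.95 (SE 0.76, adjusted p = 1.9e-08), and the summed counts differed 382-fold (95% counting interval 194 to 885).

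Elavl3 (chr9:22015005-22052023, minus strand) had at most 0.429 CPM and 9 counts in all without Ngn3. NPM cells had 34.5, 10.2 and 1.33 CPM (WT) and 42.7 and 29.7 CPM (6SA). NP cells had 0.477 to 6.86 CPM (median 1.66) and NM cells 0 to 13.6 CPM (median 3.76). It exceeded every Ngn3-negative sample in 15 of 17 samples, with both exceptions in WT NM cells. The fitted log2 fold change was 6.84 (SE 0.88, adjusted p = 2.3e-06), and the summed counts differed 184-fold (95% counting interval 96.8 to 403). Elavl3 shares 3.13% of its 50-base windows with other genes, mostly the overlapping gene Gm49318, against 0% for Elavl4.

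Nova1 (chr12:46694517-46818929, minus strand), for a neuronal splicing regulator, was the least expressed of the genes that rose. Without Ngn3 it had 4 counts in all and at most 0.279 CPM. In NPM cells it had 3.08, 4.24 and 0.266 CPM (WT) and 1.02 and 9.64 CPM (6SA), and it was at 0 counts in 3 Ngn3-positive samples, WT NP, 6SA NP and 6SA NM replicate 3. It lay above every Ngn3-negative sample in 13 of 17 samples. The fitted log2 fold change was 5.63 (SE 0.96, adjusted p = 0.00012), and the summed counts differed 67.0-fold (95% counting interval 25.9 to 247). The calls on Rcor2, Srrm3, Celf3, Elavl3, Elavl4 and Nova1 held in all 32 fits without a sample.

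**Figure D2:**
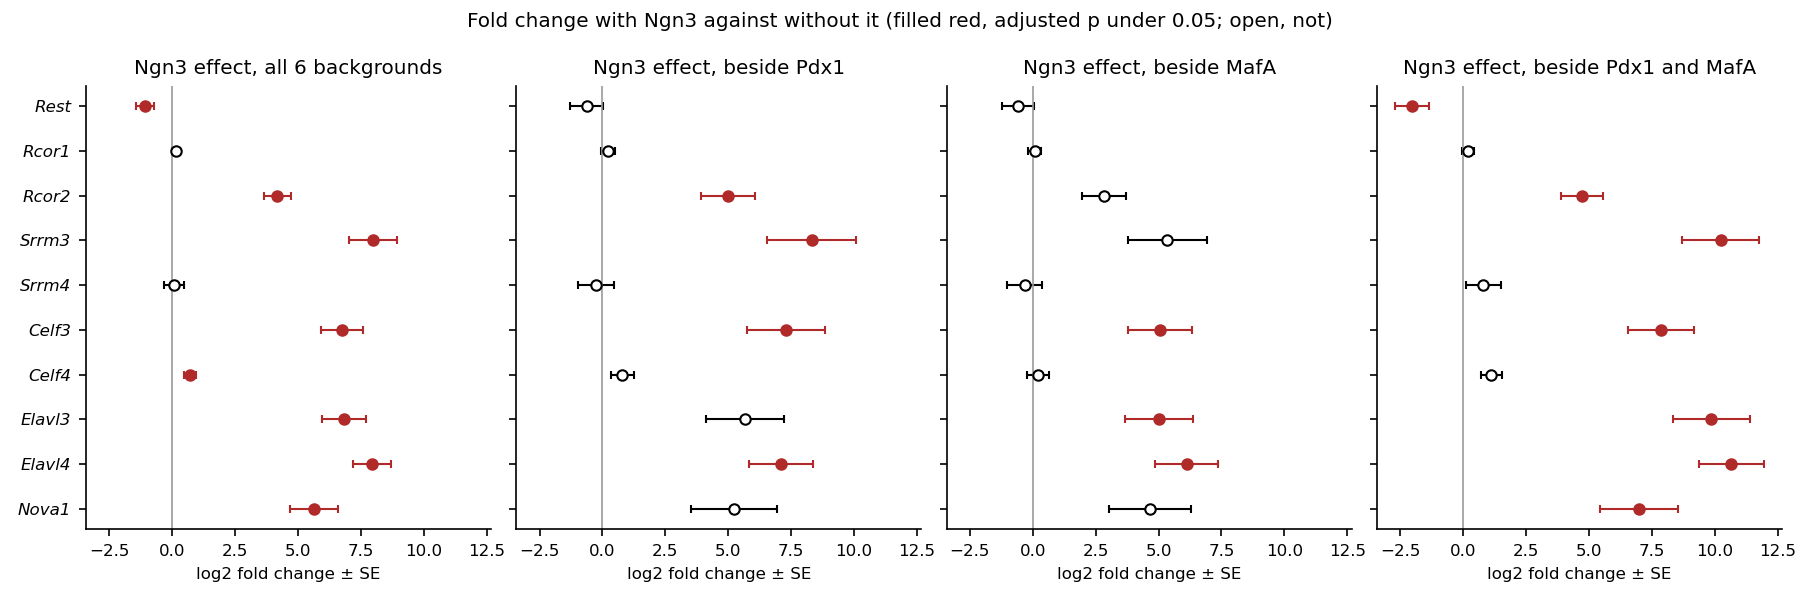
Log2 fold change with Ngn3 against without it (horizontal axis, ± SE) for the 10 genes, over all 6 backgrounds and beside Pdx1, MafA or both, with filled red points where the edgeR adjusted p was under 0.05. Rest is left of 0 in all panels and called over all backgrounds (−1.08) and beside Pdx1 and MafA (−2.02), and the 6 genes from Rcor2 to Nova1 that were near 0 CPM without Ngn3 are right of 0 in all panels.

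The same comparison was made beside each set of other factors, with both cultures together. No kept sample of WT P, 6SA P, WT M or 6SA NPM was at passage 5, and the model held no passage term. Passage was thus unequal between the cells compared, most so beside Pdx1, and this holds for the effect over 6 backgrounds too. Only the fits at passage 2 alone keep passage out. Beside Pdx1, 4 of the 10 genes rose (Rcor2, Srrm3, Celf3 and Elavl4), against 1.32% of all genes. Their fitted log2 fold changes were 4.99 (adjusted p = 0.011), 8.32 (0.016), 7.31 (0.0091) and 7.09 (0.0020). Elavl3 (5.65, adjusted p = 0.068) and Nova1 (5.24, adjusted p = 0.16) did not pass, but each did in 4 of 10 alternative fits, among them DESeq2 and passage 2 alone. With the first technical repeat alone Rcor2 was not called (adjusted p = 0.12). Beside MafA, 3 rose (Celf3, Elavl3 and Elavl4), against 2.5% of all genes, with 5.07 (adjusted p = 0.016), 5.01 (0.031) and 6.12 (0.0032). Here Rcor2 passed in 6 of 10 alternative fits, Srrm3 in 5 and Nova1 in 2. Beside Pdx1 the calls on Rcor2, Srrm3 and Celf3 were lost without any 1 of the 4 P samples (adjusted p up to 0.15) and that on Elavl4 without 6SA P replicate 2 (0.051). Beside MafA the call on Celf3 was lost without WT M replicate 1 or 2 (up to 0.15), and that on Elavl3 without 6SA M replicate 1 or 3, 6SA NM replicate 1, WT M replicate 1 or 2, or WT NM replicate 1, where its value was 2.61 (adjusted p = 0.47). Rest did not pass beside Pdx1 (−0.63, SE 0.66, adjusted p = 0.84) or beside MafA (−0.60, SE 0.63, adjusted p = 0.79).

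Beside Pdx1 and MafA together, 6 rose (Rcor2, Srrm3, Celf3, Elavl3, Elavl4 and Nova1), against 9.42% of all genes, and Rest fell, against 8.4%. All 5 NPM samples were above all 6 PM samples for these 6 genes and for Celf4, which held for 5.66% of all genes. The log2 fold change of Rest was −2.02 (SE 0.67, adjusted p = 0.036), from 83.9 to 117 CPM in the 6 PM samples to 0 to 84.3 CPM in the 5 NPM samples. Of the 5, 4 were below every PM sample and WT replicate 3 was within their range. Without 6SA NPM replicate 1 the value was −1.63 (adjusted p = 0.18), and without WT NPM replicate 1 it was −1.84 (0.085). Without WT PM replicate 2 or 3 or 6SA PM replicate 2 or 3 the adjusted p was 0.055 to 0.063. At passage 2 alone the value was −3.12 (adjusted p = 0.0046). The fitted values of the genes that rose ran from 4.72 for Rcor2 (adjusted p = 0.00026) to 10.65 for Elavl4 (adjusted p = 2.6e-06). Celf4 (1.12, SE 0.42, adjusted p = 0.064), Srrm4 (0.81, SE 0.68, adjusted p = 0.46) and Rcor1 (0.19, SE 0.25, adjusted p = 0.68) did not pass, although Celf4 did in 6 of 10 alternative fits (adjusted p down to 0.0093).

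Whether the Ngn3 effect differed between the sets of other factors was tested by its difference. No gene of the 10 was called, where few of the 24004 genes were. Of all genes, 19 were called for both factors against Pdx1, 12 for both against MafA and 0 for Pdx1 against MafA. Intervals are from the distribution of the same edgeR test, unadjusted. For Rest the effect beside Pdx1 and MafA differed from that beside Pdx1 by −1.39 (95% interval −3.30 to 0.52) and from that beside MafA by −1.42 (−3.28 to 0.43). For Elavl4 these differences were 3.57 (−0.40 to 7.53) and 4.53 (−0.03 to 9.09, adjusted p = 0.54). Those of Srrm3 and Nova1, and 1 of the 2 for Elavl3, could not be estimated, since the cells without Ngn3 held nearly no counts.

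Within Ngn3-positive cells, adding the remaining factor gave few calls, which depended on the fit. When Pdx1 was added to Ngn3 with MafA, Elavl4 rose by 3.08 (SE 0.83, adjusted p = 0.043) and the other 9 genes did not pass, against 1.17% of genes called higher. Srrm3 stood at 3.50 (adjusted p = 0.066) and Rest at −1.63 (adjusted p = 0.17). The call on Elavl4 was lost in 10 of 32 fits without a sample (WT M 2, NM 2, NM 3, NPM 1 and NPM 2, and 6SA NP 2, NM 2, NM 3, NPM 1 and NPM 2), with an adjusted p up to 0.12. It was also lost with the first technical repeat alone (0.11). At passage 2 alone Rest passed here (−2.58, adjusted p = 0.041), as it did without WT NPM replicate 3 (−2.73, 0.0086). Srrm3 passed in 5 of 10 alternative fits (adjusted p down to 0.0029) and Elavl3 in 3. When MafA was added to Ngn3 with Pdx1, none of the 10 was called, against 1.88% of genes called in either direction, and Elavl3 had the lowest adjusted p (3.26, SE 1.02, adjusted p = 0.11). Without WT NPM replicate 3 both Rest (−2.38, adjusted p = 0.024) and Elavl3 (3.53, 0.045) were called. These comparisons share the NPM samples with each other and with the Ngn3 effect beside both factors. Without Ngn3, adding MafA to Pdx1 or Pdx1 to MafA called none of the 24004 genes by edgeR, with 531 and 689 genes at an unadjusted p under 0.05 and 13 and 27 genes called by DESeq2, none of them among the 10. Over the 12 conditions ordered by mean level, the ranges of neighbours were apart at 2 of 11 steps for Elavl4, at 1 each for Rcor2, Celf3 and Elavl3, and at none for Rest, Rcor1, Srrm3, Srrm4, Celf4 and Nova1.

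The form of Ngn3 was the next question. The phospho-mutant against wild-type Ngn3, over NP, NM and NPM cells, called 0% of genes by edgeR, and 1422 genes had an unadjusted p under 0.05 and 26 were called by DESeq2, none of them among the 10. For Rest the difference was −0.51 (95% interval −1.56 to 0.53, but 0.09 at passage 2 alone and 0.22 without WT NPM replicate 3), for Rcor2 1.04 (−0.18 to 2.27) and for Celf3 1.06 (−0.52 to 2.65). For Elavl4 it was 0.72 (−0.58 to 2.02), so that each of these 4 intervals holds differences of over 1 on the log2 scale. The test of whether the Ngn3 effect differed between 6SA and WT cultures also called none, with 647 genes at an unadjusted p under 0.05 and 5 called by DESeq2, and it could not be estimated for Srrm3, Elavl3 and Nova1. Between Ngn3-negative cells of 6SA and WT cultures edgeR called none, with 591 genes at an unadjusted p under 0.05 and 8 called by DESeq2, none of them among the 10.

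In each kind of culture taken alone, Rcor2, Srrm3, Celf3, Elavl3 and Elavl4 rose beside Pdx1 and MafA, in WT cultures (against 2.48% of genes called higher) and in 6SA cultures (against 3.29%). Nova1 passed in neither, but did in 5 of 10 alternative fits in WT cultures (adjusted p down to 0.013) and in 4 of 10 in 6SA cultures (down to 0.0041). Rest did not pass in either, at −1.57 (adjusted p = 0.33) in WT and −2.47 (adjusted p = 0.17) in 6SA cultures, but it did in 2 of 10 alternative fits in each. In WT cultures these were no gene filter and passage 2 alone (−3.74, adjusted p = 0.037). In 6SA cultures they were no gene filter and only the conditions compared (adjusted p down to 0.00059). Rest also passed in WT cultures without WT NPM replicate 3 (−3.77, 0.014) and in 6SA cultures without WT NPM replicate 2 (−2.47, 0.029). The call on Celf3 in WT cultures was lost without WT NPM replicate 1 or any 1 of the 3 WT PM samples (adjusted p up to 0.11), as was that on Rcor2 (up to 0.14), which in 6SA cultures was lost without PM replicate 2 or 3 (up to 0.066). With the first technical repeat alone Rcor2 lost its call in both (adjusted p = 0.088 and 0.10). Beside Pdx1 alone, none of the 10 was called in WT cultures (against 0.108% of genes) and Elavl4 was called in 6SA cultures (8.52, adjusted p = 0.045, against 0.367%). At passage 2 alone Rcor2 (7.07, adjusted p = 0.0087) and Elavl4 (6.21, 0.0087) were called there in WT cultures, and Celf3 (9.86, 0.010) in 6SA cultures. Beside MafA alone, none was called in WT cultures (against 0.308%) and Elavl4 in 6SA cultures (7.42, adjusted p = 0.015, against 1.17%). A call in 6SA and not in WT cultures is not a difference between them, which was tested over all backgrounds only, as given above.

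The members' levels were then set against Rest within the 17 Ngn3-positive samples, on the log2(CPM + 1) scale, in 19 relations with Rest or Neurog3 and with p-values from permutations adjusted over all 19. The permutations ran freely over the 17 samples, not within conditions or passages. Differences between conditions, passages and replicate numbers therefore count in all of these p-values, which are too small where samples share such effects. Elavl4 had the most negative r and rho with Rest over the 17 samples, with Pearson's r −0.68 (permutation p = 0.0015, adjusted 0.0093) and Spearman's rho −0.95 (permutation p = 1e-05, the smallest that 100000 permutations can give, adjusted 0.00019). Without the 2 samples with Rest farthest from its median r was −0.84, and within the 12 samples of passage 2 r was −0.63 and rho −0.96. With the means of the 6 conditions removed r was −0.45, against −0.56 for Srrm4, −0.48 for Elavl3 and −0.46 for Celf3. Srrm4 was lower where Rest was higher (r −0.64, rho −0.85, adjusted permutation p = 0.017 and 0.00028, −0.71 at passage 2), although its Ngn3 effect over the 6 backgrounds did not pass the test. At passage 2 its r was more negative than that of Elavl4. Srrm3 (r −0.66, rho −0.79, adjusted permutation p = 0.0096 and 0.00076) and Elavl3 (r −0.62, rho −0.83, adjusted permutation p = 0.015 and 0.00028) were also lower where Rest was higher. For Srrm3 r was −0.59 and for Elavl3 −0.50 at passage 2. Celf3 stood at r −0.51 (rho −0.80, adjusted permutation p = 0.037 and 0.00090), but at −0.28 within passage 2. Rcor1 showed no such relation (r 0.27, rho 0.17, adjusted permutation p = 0.32 and 0.53). In all, Pearson's r passed 0.05 after adjustment for 5 of the 9 genes set against Rest and Spearman's rho for 7. Those passing by rho only were Rcor2 (rho −0.78, r −0.44, adjusted permutation p = 0.00090 and 0.089) and Nova1 (rho −0.72, r −0.48, adjusted permutation p = 0.0030 and 0.067), with r of −0.17 and −0.28 at passage 2. Passage 5 held 5 samples, too few for a value of its own. The share of all genes that would pass with Rest in these samples was not computed, so these counts have no background.

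**Figure D3:**
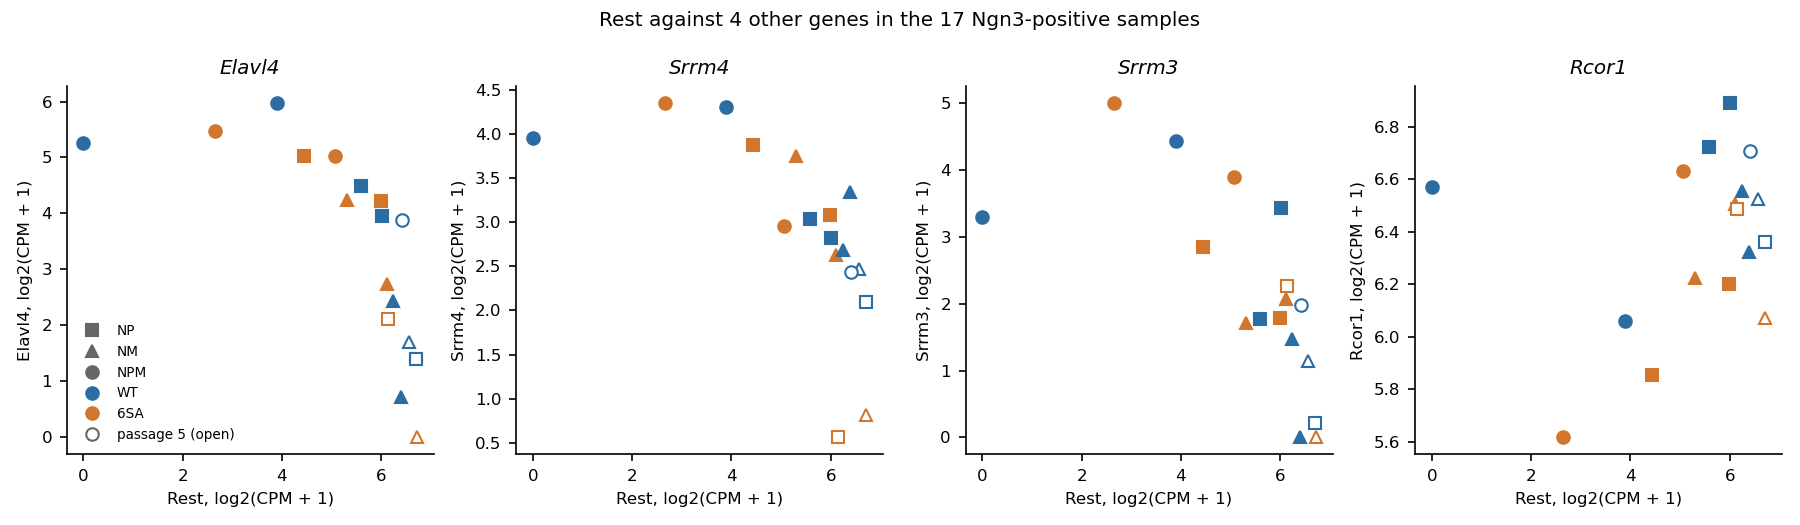
Rest (horizontal axis) against Elavl4, Srrm4, Srrm3 and Rcor1 (vertical axes) in the 17 Ngn3-positive samples, all as log2(CPM + 1). Squares are NP, triangles NM and circles NPM cells, blue is WT and orange 6SA, and open symbols are passage 5. Elavl4 tends to be higher where Rest is lower (rho −0.95), and Rcor1 shows no trend (rho 0.17).

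With Neurog3 counts, Rest had r −0.59 (rho −0.75, adjusted permutation p = 0.018 and 0.0018), and −0.44 within passage 2. Celf3 had r 0.85 (rho 0.85, adjusted permutation p = 0.0013 and 0.00028), and 0.68 within passage 2. Of the 10 genes, 8 passed 0.05 after adjustment with Neurog3 by Pearson's r, and Rcor1 and Celf4 did not. By Spearman's rho 7 passed, without Srrm3 (rho 0.49, adjusted permutation p = 0.063). Within passage 2 the r of the 7 other than Rest ran from 0.27 for Elavl4 to 0.68 for Celf3. The share of all genes that would pass with Neurog3 was not computed either. All values of a sample share its library and its scaling.

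Over all 32 samples and the 11685 genes with a mean of at least 5 CPM, the genes with a pattern most like that of Rest were Myof (r 0.95), Anxa8 (0.94), Gja1 (0.94), Stk17b (0.94) and Runx1 (0.94). The most unlike were Rab3a (−0.87), Kcnh1 (−0.86), Arhgap36 (−0.86), Atp4a (−0.86) and Chrna3 (−0.86). Those most like Celf3, the highest with Ngn3 of the 7 splicing genes among the 10, included Kcnip3 and Baiap3 (each 0.97) and Pla2g2f and Insrr (each 0.96). These correlations describe likeness over samples that include both Ngn3 states.

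Other genes of the pathway were read from lists in the comparison over the 6 backgrounds. Of 20 further genes for REST cofactors and regulators of REST, 3 rose, 2 fell and 15 did not pass, beside the 11.1% of all genes called higher and 10.5% called lower, with a median log2 fold change of 0.07, equal to that of all genes. Those that rose included Kdm1a, for LSD1 (0.60, SE 0.14, adjusted p = 0.0019), and Sin3b, for a deacetylase scaffold (0.54, SE 0.19, adjusted p = 0.043). Those that fell were Hdac1, for a histone deacetylase (−0.63, SE 0.14, adjusted p = 0.0014), and Hmg20b, for an LSD1 complex subunit (−0.60, SE 0.15, adjusted p = 0.0043). Kdm1a had a median of 128 CPM with Ngn3 and 75.4 CPM without it, and Hdac1 28.7 and 47.2 CPM.

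Of the 22 known RE1 genes, 18 rose (against the same 11.1%), none fell and 4 did not pass, with a median of 5.83. Nefm, for a neurofilament, rose by 9.76 (SE 0.60, adjusted p = 4.5e-12), from at most 0.672 CPM to 24.1 to 539 CPM. Chga, for the granule protein chromogranin A, rose by 9.79 (SE 0.78, adjusted p = 4.0e-10), from at most 4.67 CPM to 105 to 5360.1 CPM. Syt7 (7.70, adjusted p = 7.2e-09) and Syp (8.53, adjusted p = 1.2e-08), for proteins of secretory vesicles, were next. The 4 that did not pass, named here after their values were seen, were Mapk8ip1 (0.96, adjusted p = 0.13), Bdnf (−0.18, adjusted p = 0.75), and Syt4 and Scn2a, which could not be estimated. Bdnf, whose 5′ UTR site is shown above, had 6.59 to 34.6 CPM without Ngn3 and 6.85 to 38.9 CPM with it. Many genes of this list also mark endocrine cells, whose 8 markers all rose, so the list does not separate REST targets from endocrine genes.

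Of 9 other neural splicing paralogues, 6 rose (against 11.1%) and 3 did not pass, with a median of 3.71. Rbfox3 rose by 6.73 (adjusted p = 3.1e-07), Khdrbs3 by 2.88 (2.8e-06), Celf6 by 7.18 (5.0e-05) and Celf5 by 3.71 (0.00018). All 4 are genes for RNA-binding proteins known mainly from neurons. Of 14 broadly expressed splicing regulators, 2 rose, 2 fell and 10 did not pass, against 11.1% and 10.5% of all genes, with a median of −0.13. Rbfox2 (1.02, SE 0.15, adjusted p = 1.3e-05) and Celf2 (0.54, SE 0.16, adjusted p = 0.012) rose. Mbnl1 (−0.75, SE 0.16, adjusted p = 0.0012) and Ptbp1 (−0.64, SE 0.20, adjusted p = 0.019), for a repressor of neuronal exons, fell. Rbfox2 went from 34.3 to 79.1 CPM without Ngn3 to 65.4 to 172 CPM with it, and Ptbp1 from 78.5 to 386 CPM to 79.1 to 246 CPM.

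**Figure D4:**
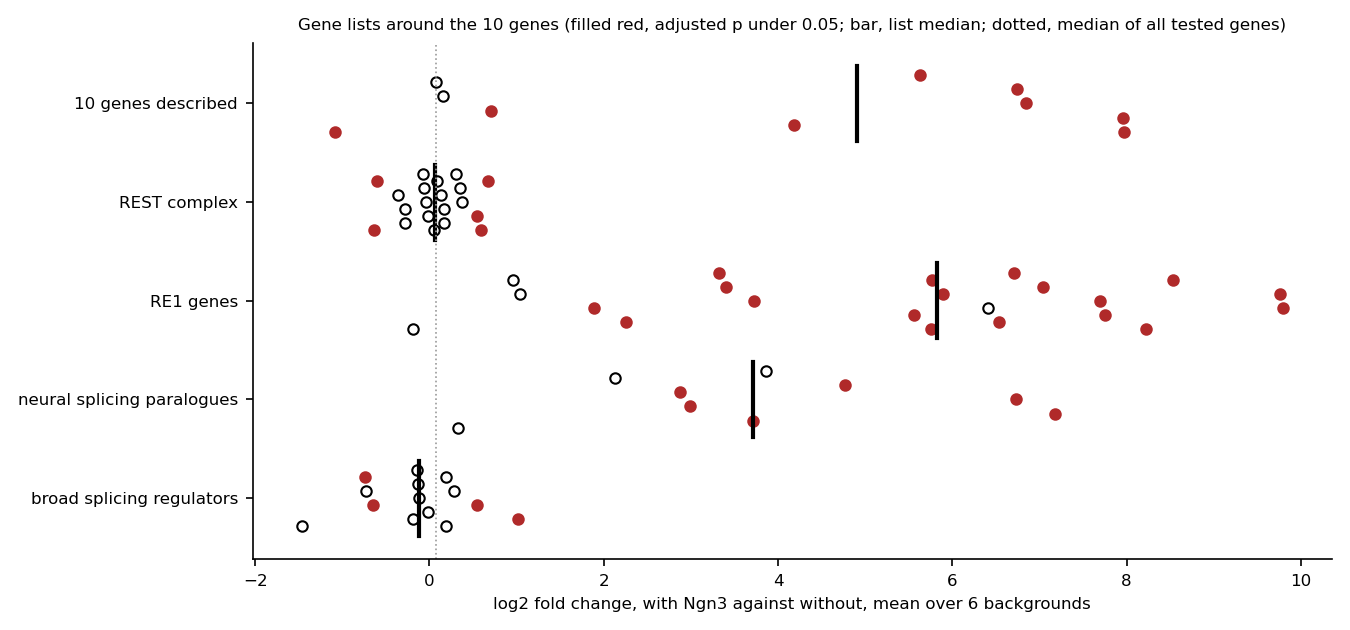
Log2 fold change with Ngn3 against without it, mean over 6 backgrounds (horizontal axis), for each gene of 5 lists (rows), with filled red points at an edgeR adjusted p under 0.05, bars at the list medians and a dotted line at the median of all genes (0.07). The RE1 genes (median 5.83) and neural splicing paralogues (3.71) lie mostly to the right, and the REST complex genes (0.07) and broad splicing regulators (−0.13) lie around 0.

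**Figure D5:**
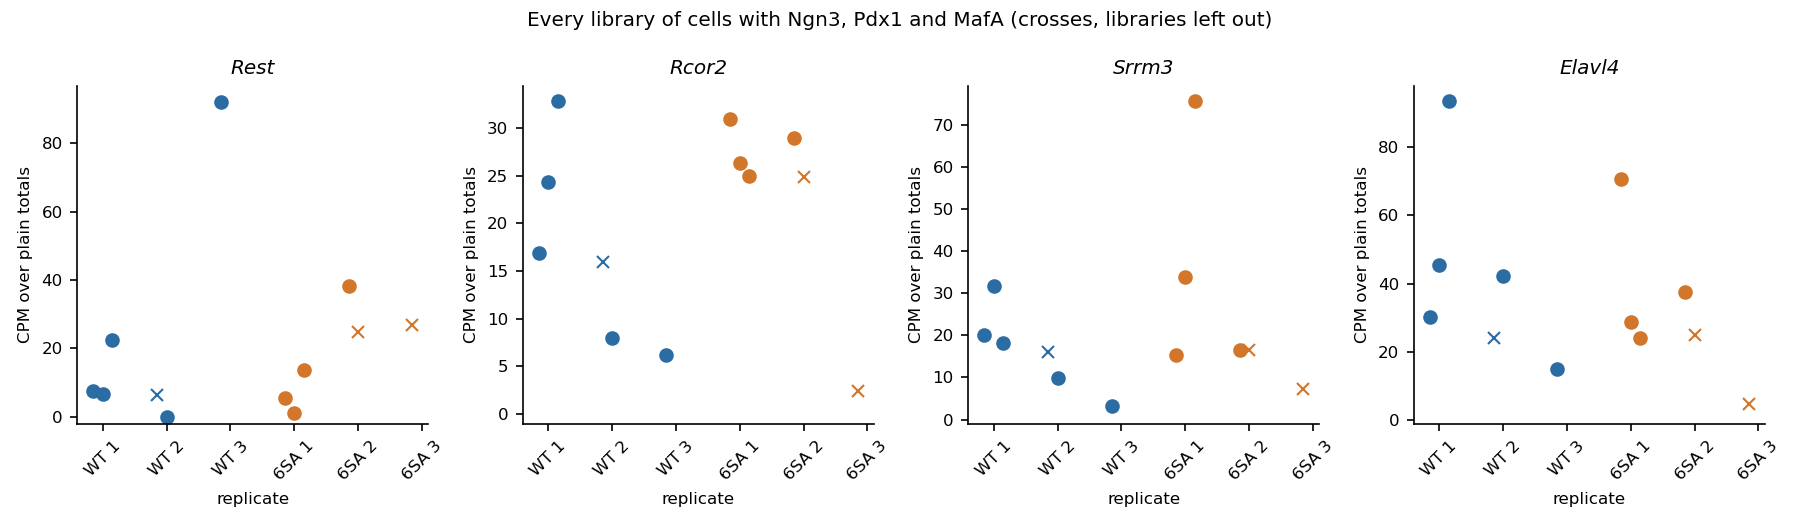
Rest, Rcor2, Srrm3 and Elavl4 in every library of NPM cells, as CPM over plain library totals (vertical axes) by culture and replicate (horizontal axes), with crosses for the 3 libraries left out for low totals. Rest differs between repeats of a sample and is far higher in WT replicate 3 (passage 5) than in the other libraries, and the crosses of Srrm3 and Elavl4 are above 0 in each.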

How the data were processed

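Smart-seq2-type libraries of 50-cell pools were aligned by the authors with GSNAP to mm10 and counted per Ensembl gene with HTSeq 0.5.3p3, per the labels. The deposited values are raw counts per gene and library, not normalized. Spike-in and summary rows stayed out of totals and tests (no feature 6.42 to 27.8% and ambiguous 3.44 to 14.2% of a library). Of 61 libraries, 58 with over 1000000 gene counts were kept and technical repeats summed into 32 samples. Genes with a count in at least 5 libraries and a variance above 0.001 were tested. A single edgeR 4.0.16 quasi-likelihood model (R 4.3.3, TMM, trended dispersion, legacy mode) held all 12 conditions, with Benjamini-Hochberg adjustment over all genes tested. A run on simulated counts, with the same spread for all genes and no replicate or passage effect, covered the effect over 6 backgrounds only. It says nothing of the smaller comparisons. Alternatives included DESeq2 1.42.0. Correlation p-values are two-sided. Ensembl identifiers were matched to symbols of GRCm38. The genes and lists were chosen with earlier results of these data known. All 10 genes are described, and of each list up to 4 genes per direction with the lowest adjusted p. Some genes picked by these rules are not reported here. Levels per length use the union of exons.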

Additional observations from a re-analysis of the deposited data

Results flagged for a closer look

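The 3 libraries left out for totals under 1000000 gene counts, all of NPM cells, carry signal of their own, given here as CPM over plain totals. Rcor2 reached 24.8, Srrm3 16.6, Celf3 33.1, Elavl3 24.0 and Elavl4 24.8 CPM in them, and each of these genes was above the highest Ngn3-negative sample in all 3. For Rcor2 in 6SA replicate 3 this was 2.45 CPM from 1 count, while kept single libraries without Ngn3 reached 4.73 CPM. Nova1 reached 4.14 CPM, from 1 count, and was above that level in 1 of the 3. Celf4 reached 66.2 CPM and was at least 55.9 CPM in all 3, above every kept sample, of which the highest had 30.8 CPM. Rest was 24.8, 26.9 and 6.39 CPM in them, below the lowest Ngn3-negative sample. These values rest on 0 to 35 counts each and were not tested. No condition has more than 3 samples, so no sample was tested as an outlier of its condition.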

How the results depend on the processing

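The alternatives were RLE scaling, edgeR's own expression filter, no gene filter, the current (not legacy) quasi-likelihood mode, all 61 libraries, a replicate block, DESeq2, the first technical repeat alone, only the conditions compared (not applicable to the effect over 6 backgrounds), passage 2 only, and leaving out each sample in turn. Over the 6 backgrounds, the calls on Rcor2, Srrm3, Celf3, Elavl3, Elavl4 and Nova1 held under all that were run. With the first technical repeat only, Rest stood at −0.99 and was not called, which left 0 of the 10 genes lower. Celf4 lost its call there, without a gene filter and at passage 2. Beside Pdx1 and MafA, Rest stood at −1.96 with the first repeat and −2.0008 with only the conditions compared, again with 0 called lower. Beside Pdx1 the 358 genes called became 1273 without a filter, 684 in the current mode, 1011 with the replicate block, 939 in DESeq2 and 696 at passage 2. Beside MafA the 1121 became 2077 without a filter, 2123 with the replicate block and 1945 in DESeq2, and the 3 of the 10 genes called higher became 5 under edgeR's filter, DESeq2 and passage 2 and 6 without a filter and with the block. When single samples or replicate 3 were left out, the effect over 6 backgrounds called 6 to 7 of the 10 genes higher and 0 to 1 lower, with Rest from −1.64 to −0.95. Beside Pdx1 it was 117 to 696 genes and 0 to 6 of the 10 higher, beside MafA 515 to 1197 genes and 1 to 5 of the 10, and beside both 0 to 1 of the 10 lower, with Rest from −3.12 to −1.63. The cause of these changes was not tested.

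Smaller comparisons moved more. In DESeq2 the genes called rose from 26 to 217 and 88 to 404 beside Pdx1 (WT, 6SA), from 159 to 670 and 377 to 1126 beside MafA, from 1167 to 2481 and 1390 to 2921 beside both, from 451 to 1371 with MafA added and from 654 to 1948 with Pdx1 added. Without a gene filter the form of Ngn3 called 239 genes, none of the 10. Of the 10 genes, those called higher beside Pdx1 alone were 0 to 4 in WT and 0 to 5 in 6SA cultures, and beside MafA alone 0 to 2 and 1 to 4. Those called higher with Pdx1 added to Ngn3 and MafA were 0 to 3. Of the single-gene values called in neither fit, 26 changed sign by over 1 SE, the difference of Rest between the forms of Ngn3 among them. Leaving out samples was not run for the effects beside Pdx1 or MafA in a single culture, for differences between backgrounds, for the interaction with the form, or for 6SA against WT cultures without Ngn3.

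Replicate numbers were checked as a pairing. Of 24 pairs of same-numbered samples, 20 had deviations that correlated over 0.1 (median 0.338, −0.387 to 0.746, over 5000 genes), and 24 of 28 samples correlated best with their own number, which hints at a shared replicate effect. The numbers were not used as pairs because the other 4 pairs did not exceed 0.1 and, beyond the passage, no label says what a number shares. With the replicate block the effect over 6 backgrounds called 6620 genes, 7 of the 10 higher and Rest lower (−1.32, adjusted p = 0.0032). The block turned Elavl3 (adjusted p = 0.00086) and Nova1 (0.029) beside Pdx1, Rcor2, Srrm3 and Nova1 beside MafA, Celf4 beside both, Srrm3 and Elavl3 with Pdx1 added, and Elavl3 with MafA added into calls, besides calls within single cultures. Depth limits Srrm3, Elavl3, Elavl4 and Nova1, whose levels without Ngn3 lie at or under 3 counts in nearly every sample.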
